A study of Homo sapiens with 15 samples.

Results

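The enzymes that break down tyrosine, TAT, HPD, HGD, GSTZ1 and FAH, were followed in A549 cells, a line grown from a human lung carcinoma, exposed to geldanamycin, an ansamycin that blocks the chaperone HSP90. They are 5 of 19775 genes measured on Affymetrix HG-U133 Plus 2.0 arrays, and were read from every probe set that the platform annotation gives exactly 1 of these symbols, 11 of 41091 such probe sets. TAT had 3 probe sets, HGD 4, FAH 2, and HPD and GSTZ1 had 1 each. The brightest probe set over the 15 arrays stands for the gene, and the others are given beside it. There were 3 arrays in each of 5 groups of the same line: geldanamycin at 40 nM for 24 h, the DMSO vehicle for 24 h, and vehicle, 10 nM and 40 nM for 48 h. The 40 nM and 10 nM doses were the IC50 and the IC20 that the submitters had determined, and no untreated group without DMSO is among these arrays.

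Tyrosine is degraded in the cytosol by a chain of enzymes, mainly in liver. TAT (tyrosine aminotransferase) turns tyrosine into 4-hydroxyphenylpyruvate, HPD (4-hydroxyphenylpyruvate dioxygenase) makes homogentisate from it, and HGD (homogentisate dioxygenase) opens that ring. GSTZ1 (maleylacetoacetate isomerase) and FAH (fumarylacetoacetate hydrolase) then give fumarate and acetoacetate. Inherited loss of HGD causes alkaptonuria and loss of FAH causes a severe tyrosinemia, and TAT is a classical glucocorticoid-induced gene of liver.

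The chain was chosen because HPD and HGD had been seen to change on these arrays: HPD had the highest of 19775 log2 changes at 40 nM over vehicle after 24 h, and HGD the highest at 40 nM over 10 nM after 48 h. The values of HPD and HGD, and all values of the 24 h comparison and of the difference between the times, are therefore given as a description, with no test. TAT, GSTZ1 and FAH were tested in the comparisons at 48 h with limma, with p-values adjusted over all genes and called below 0.05. Values are log2 RMA values, and ± after a level is the SD of 3 arrays, ± after a change its standard error. Whether replicates came from separate cultures is not in the labels, so these errors measure the spread between arrays, which may be technical.

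HPD (206024_at) was high in 2 of the 5 groups. At 24 h it read 8.17, 8.25 and 8.47 at 40 nM, against 4.77, 3.84 and 4.50 with vehicle. The groups lay far apart, although the vehicle arrays spread more (SD 0.48) than the 40 nM arrays (SD 0.16). At 48 h it read 4.10, 4.24 and 4.22 with vehicle, 6.33, 6.70 and 6.48 at 10 nM, and 4.58, 4.51 and 4.99 at 40 nM. At 48 h the level was thus higher at 10 nM than at 40 nM, and none of the 3 dose groups overlapped another. The 10 nM arrays also stood apart in their control probe sets, as given below, and dose cannot be told apart from this. Of all genes, 37.6% had groups that did not overlap at 40 nM against vehicle after 24 h, 40.2% at 10 nM and 38.8% at 40 nM after 48 h, and 39.9% between the doses. As log2 changes, HPD was higher by 3.93 ± 0.19 at 40 nM after 24 h, or 15.3-fold, by 2.32 ± 0.19 at 10 nM after 48 h, or 4.98-fold, and by 0.51 ± 0.19 at 40 nM after 48 h, or 1.42-fold, which was not among the called genes. Between the doses at 48 h the log2 difference, 40 nM minus 10 nM, was -1.81 ± 0.19. Taking the 24 h change at 40 nM from the 48 h change left -3.43 ± 0.27, the lowest of all genes. HPD stood at the 77.0th percentile of genes at 40 nM after 24 h and at the 34.4th with vehicle.

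The upstream sequence of HPD is shown because HPD had the largest change of the chain against vehicle. RefSeq (GRCh38.p14) gives HPD a pair of starts on chromosome 12, on the minus strand, and the array does not tell which of them was used. Below are the 250 bases before each, with matches to the searched motifs in capitals.
HPD, chr12:121888612-121888861 (minus strand): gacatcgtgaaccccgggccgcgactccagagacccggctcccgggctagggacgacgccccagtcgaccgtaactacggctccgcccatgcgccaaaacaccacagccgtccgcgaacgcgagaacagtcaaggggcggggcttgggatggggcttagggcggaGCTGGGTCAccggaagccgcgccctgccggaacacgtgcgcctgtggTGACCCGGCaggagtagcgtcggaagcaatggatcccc
HPD, chr12:121858860-121859109 (minus strand): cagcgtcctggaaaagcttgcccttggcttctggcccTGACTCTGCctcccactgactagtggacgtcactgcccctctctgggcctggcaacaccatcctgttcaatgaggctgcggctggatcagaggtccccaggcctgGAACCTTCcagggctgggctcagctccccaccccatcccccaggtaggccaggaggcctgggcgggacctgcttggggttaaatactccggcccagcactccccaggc
Both strands were searched for the heat shock element GAANNTTC, the antioxidant response element TGACNNNGC and the glucocorticoid response element. The window at 121888861 held 2 antioxidant matches, and the window at 121859109 held 1 heat shock match and 1 antioxidant match, and neither held a glucocorticoid match, with no overlap between matches. Of 35116 promoter windows of that length, 5.78% held the heat shock element, 10.9% the antioxidant element and 1.99% the glucocorticoid element. A match describes letters and is not a known binding site.

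HGD, the enzyme after HPD, followed another course. At 24 h its brightest probe set, 205221_at, read 5.55, 5.26 and 5.45 at 40 nM, against 4.57, 4.63 and 4.80 with vehicle. At 48 h it read 7.15, 6.78 and 6.91 with vehicle, 5.17, 5.05 and 5.27 at 10 nM, and 9.37, 9.41 and 9.32 at 40 nM. The dose groups did not overlap, as with 38.8% to 40.2% of all genes in any 1 pair of groups. Their order placed 10 nM lowest and 40 nM highest, while HPD had its highest level at 10 nM. HGD was higher by 0.76 ± 0.10 at 40 nM after 24 h (1.69-fold), lower at 10 nM after 48 h by a log2 change of -1.78 ± 0.10, and higher by 2.42 ± 0.10 at 40 nM after 48 h (5.34-fold). At 40 nM against 10 nM after 48 h the log2 difference was 4.20 ± 0.10, or 18.4-fold, and the 48 h change at 40 nM less the 24 h change was 1.66 ± 0.14.

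The other HGD probe sets had the same directions at 48 h, with smaller sizes. At 40 nM against vehicle they were higher by 2.23 ± 0.14 (214308_s_at), 2.16 ± 0.13 (214307_at) and 0.80 ± 0.09 (237029_at), and at 10 nM their log2 changes were -1.49 ± 0.14, -0.74 ± 0.13 and -0.35 ± 0.09 in that order. All 4 probe sets of HGD were apart from vehicle at both doses after 48 h. Over all genes, each read from its brightest probe set, 40.2% were apart at 10 nM and 38.8% at 40 nM. The share over all probe sets was not computed. At 24 h 2 of the 4 overlapped between 40 nM and vehicle, 214308_s_at with a log2 change of 0.36 ± 0.14 and 237029_at with 0.05 ± 0.09. The dimmest, 214307_at, had a mean level of 2.85 at 40 nM after 24 h, against 2.42 with vehicle, at the 9.39th and the 1.62th percentile of genes.

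**Figure D1:**
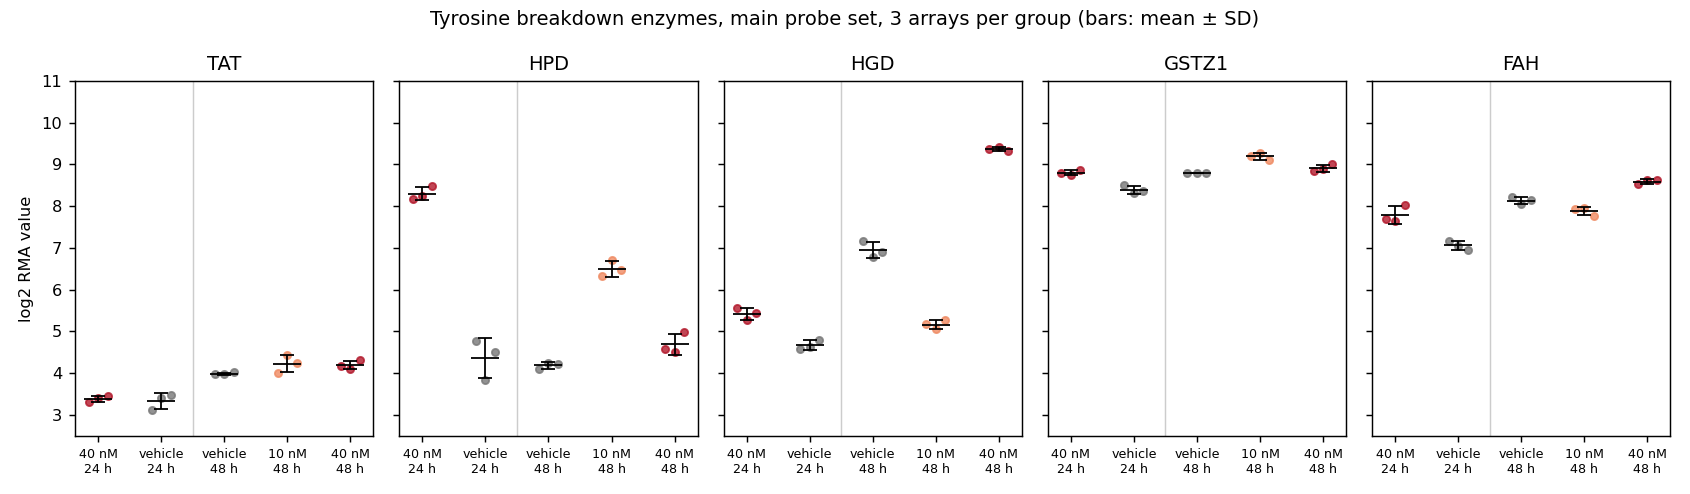
Levels of the 5 enzymes on each array. The y axis is the log2 RMA value of the brightest probe set, the x axis the 5 groups, points are arrays and bars the mean ± SD of 3 arrays, with a line between the times. HPD stands out at 40 nM after 24 h (8.30 ± 0.16) and at 10 nM after 48 h (6.50 ± 0.19), and HGD at 40 nM after 48 h (9.37 ± 0.04).

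TAT, which feeds the chain, stayed at a low level in every group. Its brightest probe set, 206916_x_at, averaged 3.39 ± 0.08 at 40 nM and 3.33 ± 0.18 with vehicle at 24 h, and at 48 h 3.99 ± 0.02 with vehicle, 4.23 ± 0.21 at 10 nM and 4.20 ± 0.10 at 40 nM. These means lay between the 18.1th and the 26.0th percentile of genes. After 48 h TAT did not pass at 10 nM (0.24 ± 0.11, limma adjusted p = 0.128), at 40 nM (0.21 ± 0.11, adjusted p = 0.211) or between the doses (-0.03 ± 0.11, adjusted p = 0.909). The 95% interval of the change at 40 nM after 48 h ran from -0.027 to 0.44. It was built from limma's standard error with 10 degrees of freedom. The limma test uses more, so the interval is slightly wider than that of the test. The other TAT probe sets, 1555189_a_at and 214413_at, were dimmer still and gave 0.15 ± 0.17 and -0.22 ± 0.10 in that comparison, neither past the threshold over 54613 probe sets (adjusted p = 0.727 and 0.203), where 12.5% of probe sets were called. At 10 nM against vehicle, where 19.1% of probe sets were called, and between the doses, where 18.7% were, neither passed. The sign at 40 nM thus differed between probe sets of TAT, and no direction is given for the gene.

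GSTZ1 (209531_at), the isomerase after HGD, was well above the dim range on all arrays. It read 8.79, 8.74 and 8.86 at 40 nM after 24 h, against 8.51, 8.32 and 8.36 with vehicle, a log2 change of 0.40 ± 0.07. At 48 h it averaged 8.80 ± 0.0017 with vehicle, 9.19 ± 0.09 at 10 nM and 8.91 ± 0.08 at 40 nM. GSTZ1 rose at 10 nM after 48 h by 0.39 ± 0.07, or 1.31-fold (limma adjusted p = 0.000548), and was lower at 40 nM than at 10 nM by a log2 change of -0.28 ± 0.07 (adjusted p = 0.00664). At 40 nM against vehicle after 48 h it did not pass (0.11 ± 0.07, limma adjusted p = 0.321). The 95% interval, built as for TAT, ran from -0.040 to 0.27. Its highest level at 48 h was thus at 10 nM, as for HPD, with a far smaller step.

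FAH (202862_at), the last enzyme, read 7.70, 7.64 and 8.04 at 40 nM after 24 h, against 7.17, 7.05 and 6.96 with vehicle, a log2 change of 0.73 ± 0.10. At 48 h it read 8.22, 8.05 and 8.15 with vehicle, 7.94, 7.95 and 7.76 at 10 nM, and 8.53, 8.63 and 8.62 at 40 nM. The dose groups did not overlap, as with 38.8% to 40.2% of all genes in any 1 pair. They had the order of HGD, with 10 nM lowest. FAH rose at 40 nM after 48 h by 0.45 ± 0.10, or 1.37-fold (limma adjusted p = 0.00397), and was higher at 40 nM than at 10 nM by 0.71 ± 0.10 (adjusted p = 9.45e-05). At 10 nM against vehicle its log2 change was -0.25 ± 0.10, which did not pass (adjusted p = 0.0769) but passed in 6 of the alternatives. The second FAH probe set, 236481_at, lay near 4 on the log2 scale in all groups and overlapped between groups in each comparison (0.01 ± 0.13 at 40 nM after 48 h). With the mean of both probe sets FAH no longer passed there (0.23, adjusted p = 0.121).

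**Figure D2:**
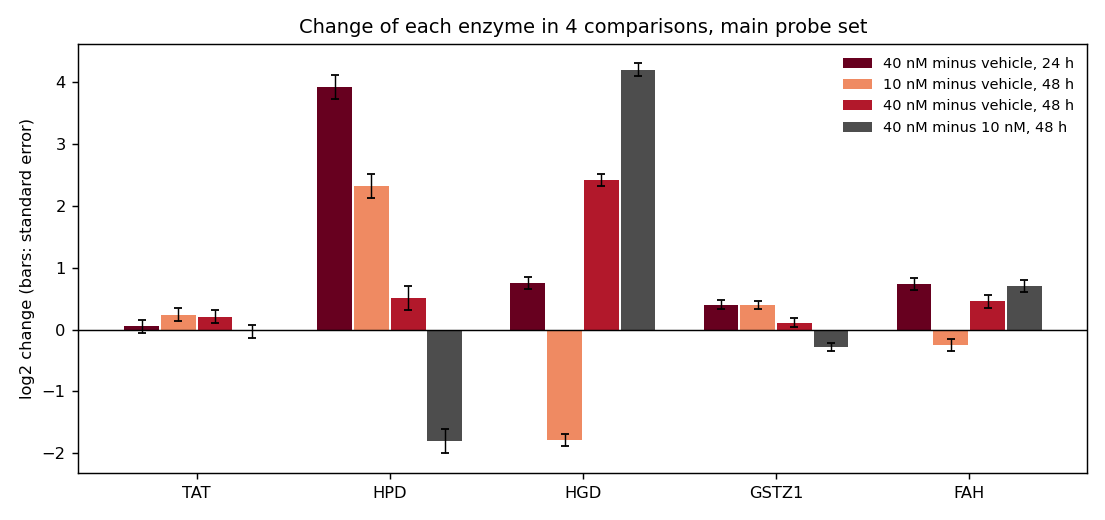
Log2 changes of the 5 enzymes. The y axis is the log2 change of the brightest probe set, each colour is 1 comparison, and bars are standard errors from the fit to all 15 arrays. At 48 h HPD and GSTZ1 are lower at 40 nM than at 10 nM (-1.81 and -0.28), while HGD and FAH are higher (4.20 and 0.71).

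Counted together, 4 of the 5 genes were called higher and 0 lower at 40 nM after 24 h, where 14.8% of all genes were called higher and 16.7% lower, 31.5% in all. This comparison chose HPD, and nothing is read from that count. After 48 h at 10 nM, HPD and GSTZ1 were called higher and HGD lower, where 14.4% of all genes were called higher and 11.9% lower, 26.3% in all. At 40 nM after 48 h, HGD and FAH were called higher and 0 lower, where 10.5% of all genes were called higher and 10.7% lower, 21.3% in all. Between 40 nM and 10 nM at 48 h, HGD and FAH were called higher and HPD and GSTZ1 lower, where 11.9% of all genes were called higher and 14.5% lower, 26.4% in all. When the changes at 40 nM were compared between the times, HGD was called higher and HPD lower, where 9.18% of all genes were called higher and 8.11% lower, 17.3% in all. The median log2 change of the 5 was 0.73 at 40 nM after 24 h, 0.24 at 10 nM and 0.45 at 40 nM after 48 h, while the median over all genes was within 0.02 of 0 in each. HPD and HGD were chosen for their changes, HGD in the comparison between the doses, so their calls are no test. With 5 genes so chosen, these shares only describe the chain.

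**Figure D3:**
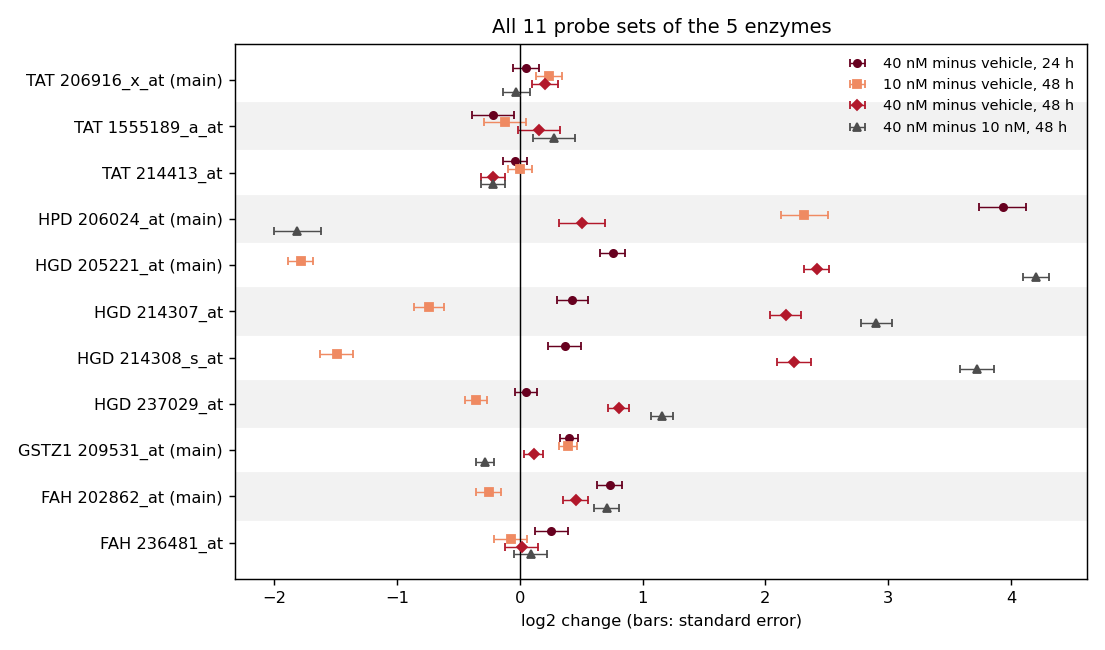
Log2 changes of all 11 probe sets. The x axis is the log2 change with its standard error, rows are probe sets grouped by enzyme, and symbols mark the 4 comparisons. The 4 HGD probe sets lie on the same side of 0 in each comparison at 48 h (for 237029_at -0.35 at 10 nM and 0.80 at 40 nM), while those of TAT scatter around 0.

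The 10 nM arrays stood apart in their control probe sets, which bears on each value at 10 nM. Poly-A spike controls, bacterial transcripts added to RNA before labelling, averaged, over 27 probe sets, 5.60 ± 0.06 with vehicle, 3.32 ± 0.03 at 10 nM and 5.48 ± 0.06 at 40 nM after 48 h. The 3' minus 5' difference of the ACTB control was 2.68 ± 0.03 at 10 nM and 0.35 ± 0.06 with vehicle at 48 h. Markers moved there too: of 10 fibroblast markers 3 fell and 0 rose at 10 nM, led by LUM (-3.45 ± 0.15, limma adjusted p = 7.46e-10), with array means of the list from 4.46 to 4.63 at 10 nM and from 5.07 to 5.09 with vehicle. Over all genes 11.9% were called lower and 14.4% higher at 10 nM. KRT19, a keratin of simple epithelia, fell by 2.41 ± 0.15 (limma adjusted p = 3.09e-08). CDH1, which encodes E-cadherin, went the other way, with means of 9.78 at 10 nM and 6.95 with vehicle at 48 h. Its rise was not confined to the 10 nM arrays. CDH1 averaged 8.73 at 40 nM after 48 h, and 10.16 at 40 nM against 7.36 with vehicle at 24 h. Dose and the control differences go together on all arrays at 10 nM and cannot be told apart. The part of these differences in the values of HPD, HGD, GSTZ1 and FAH at 10 nM was not tested. Without the 10 nM arrays in the fit, the counts for 40 nM were as before, 4 at 24 h and 2 at 48 h.

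The mean over all probe sets was between 5.13 and 5.14 on the 24 h arrays and 5.52 on those at 48 h, so a level at 48 h set against one at 24 h also holds this step, whose origin is not in the labels. Over all genes the median difference of vehicle at 48 h minus vehicle at 24 h was 0.35. HGD differed by 2.28, from a mean of 6.95 ± 0.19 at 48 h against 4.67 ± 0.12 at 24 h, above 99.6% of genes. FAH differed by 1.08, TAT by 0.65, GSTZ1 by 0.40 and HPD by -0.18. HGD was thus among the genes with the largest increase between the vehicle groups beyond the general step. At 10 nM after 48 h HGD averaged 5.16 ± 0.11, at the 38.5th percentile of genes. It stood at the 38.3th with vehicle at 24 h and at the 57.2th with vehicle at 48 h. Its change at 10 nM is set against vehicle of the same time, and need not be a fall from the 24 h level.

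The tissue label, lung epithelial, was checked against markers. KRT18 was among the brightest genes in all groups (13.90 at 40 nM and 13.59 with vehicle at 48 h), as was ALDH1A1, an aldehyde dehydrogenase abundant in A549. Others of the list were dimmer: EPCAM, an epithelial adhesion molecule, averaged between 3.97 and 5.63 over the groups, and KRT19 averaged 5.66 at 40 nM and 4.85 with vehicle at 24 h. At 48 h KRT19 averaged 8.31 with vehicle, 5.90 at 10 nM and 8.95 at 40 nM. Of 8 markers of the line 5 rose and 0 fell at 40 nM after 48 h, 2 rose and 2 fell at 10 nM, and 7 were called higher at 40 nM after 24 h. In that order 10.5%, 14.4% and 14.8% of all genes were called higher, and 10.7%, 11.9% and 16.7% lower. Of 15 hepatocyte markers, fixed because the chain is best known from liver, 3 rose at 40 nM after 48 h, APOH (1.26 ± 0.13), SERPINA1 (0.61 ± 0.15) and F2 (0.42 ± 0.08), and 0 fell. Over all genes 10.5% were called higher there and 10.7% lower. At 10 nM 0 of the 15 passed in limma's test (1 at an unadjusted p below 0.05), where 26.3% of all genes were called. The list was dim, with a median level of 4.39 at 10 nM. At 40 nM after 24 h, where 14.8% of all genes were called higher, 2 of the 15 were, APOH by 2.37 and SERPINA1 by 0.55. Array means of the list then ran from 4.21 to 4.36 at 40 nM and from 3.91 to 4.22 with vehicle. ALB, which encodes albumin and defines hepatocytes, stood at 3.08 with vehicle, 2.91 at 10 nM and 2.88 at 40 nM after 48 h, near the bottom of the scale. Array means of the hepatocyte list ran from 4.67 to 4.73 with vehicle, from 4.64 to 4.74 at 10 nM and from 4.77 to 4.85 at 40 nM after 48 h. The part of these cell type markers in the values of the 5 enzymes was not tested. Of 10 endothelial markers 0 passed at 10 nM or 40 nM after 48 h (1 and 0 at an unadjusted p below 0.05). Over all genes 26.3% and 21.3% were called in these comparisons. Of 9 leukocyte markers 1 rose at 10 nM and 2 at 40 nM after 48 h, where 14.4% and 10.5% of all genes were called higher. In bulk RNA, a change in the number of cells of a kind and a change in RNA per cell cannot be told apart.

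Genes around the chain were taken from textbook lists. Tetrahydrobiopterin is the cofactor of aromatic amino acid hydroxylases. Of 7 measured genes that make, recycle or regulate it, 5 rose and 2 fell at 40 nM after 48 h, and 4 rose and 0 fell at 10 nM, with medians of 0.42 in both. Over all genes 10.5% were called higher and 10.7% lower at 40 nM after 48 h, and 14.4% and 11.9% at 10 nM. At 24 h these shares were 14.8% and 16.7%. List counts near such shares are no result about a list. GCH1, which starts tetrahydrobiopterin synthesis, rose at 10 nM (limma adjusted p = 1.06e-06) and by 1.25 ± 0.09 at 40 nM (adjusted p = 2.32e-07). SPR, which completes it, rose by 0.58 ± 0.05 at 40 nM, and PCBD2, of cofactor recycling, fell by 1.13 ± 0.11 there. At 24 h 3 of the 7 were called higher and 1 lower.

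Of 9 other enzymes that act on tyrosine or its keto acid, 2 rose and 3 fell at 40 nM after 48 h, 1 rose and 5 fell at 10 nM, and at 24 h 0 were called higher and 3 lower. In that order 10.5%, 14.4% and 14.8% of all genes were called higher, and 10.7%, 11.9% and 16.7% lower. DDC, which decarboxylates aromatic amino acids such as DOPA, read 6.16, 6.66 and 7.01 at 40 nM after 48 h, against 4.26, 4.31 and 4.52 with vehicle, a rise of 2.25 ± 0.16 (limma adjusted p = 3.30e-07). DDC did not pass at 10 nM (0.16 ± 0.16, adjusted p = 0.578), and was higher at 40 nM than at 10 nM by 2.09 ± 0.16 (adjusted p = 4.85e-07). IL4I1, an amino acid oxidase, rose by 1.18 ± 0.14 at 40 nM and 0.72 ± 0.14 at 10 nM. HPDL, a paralog of HPD that acts in mitochondria, fell by 0.81 ± 0.14 at 10 nM after 48 h (adjusted p = 0.000437) and by 0.57 ± 0.14 at 40 nM (adjusted p = 0.00811), so at 10 nM its sign was opposite to that of HPD. GOT1, the cytosolic aspartate aminotransferase, which can also take tyrosine, fell by 0.42 ± 0.06 at 40 nM and 0.21 ± 0.06 at 10 nM.

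Downstream, of 7 measured genes for the use of acetoacetate 2 rose and 1 fell at 40 nM after 48 h, 2 rose and 2 fell at 10 nM, and at 24 h 3 were called higher and 1 lower. In that order 10.5%, 14.4% and 14.8% of all genes were called higher, and 10.7%, 11.9% and 16.7% lower. OXCT1, which activates acetoacetate for oxidation, fell by 1.73 ± 0.09 at 10 nM (limma adjusted p = 4.07e-09) and by 0.55 ± 0.09 at 40 nM. AACS, which activates it for lipid synthesis, rose by 0.62 ± 0.08 at 40 nM and 0.33 ± 0.08 at 10 nM. Of 6 tyrosine transporters 3 fell and 0 rose at 10 nM, 2 fell and 1 rose at 40 nM after 48 h, and at 24 h 1 was called higher and 2 lower. The shares over all genes are those given for the acetoacetate genes. The partners SLC3A2 and SLC7A5, which form a large neutral amino acid exchanger, fell at both doses, with log2 changes of -1.13 ± 0.06 and -0.86 ± 0.05 at 10 nM, and of -0.38 ± 0.06 and -0.29 ± 0.05 at 40 nM after 48 h.

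**Figure D4:**
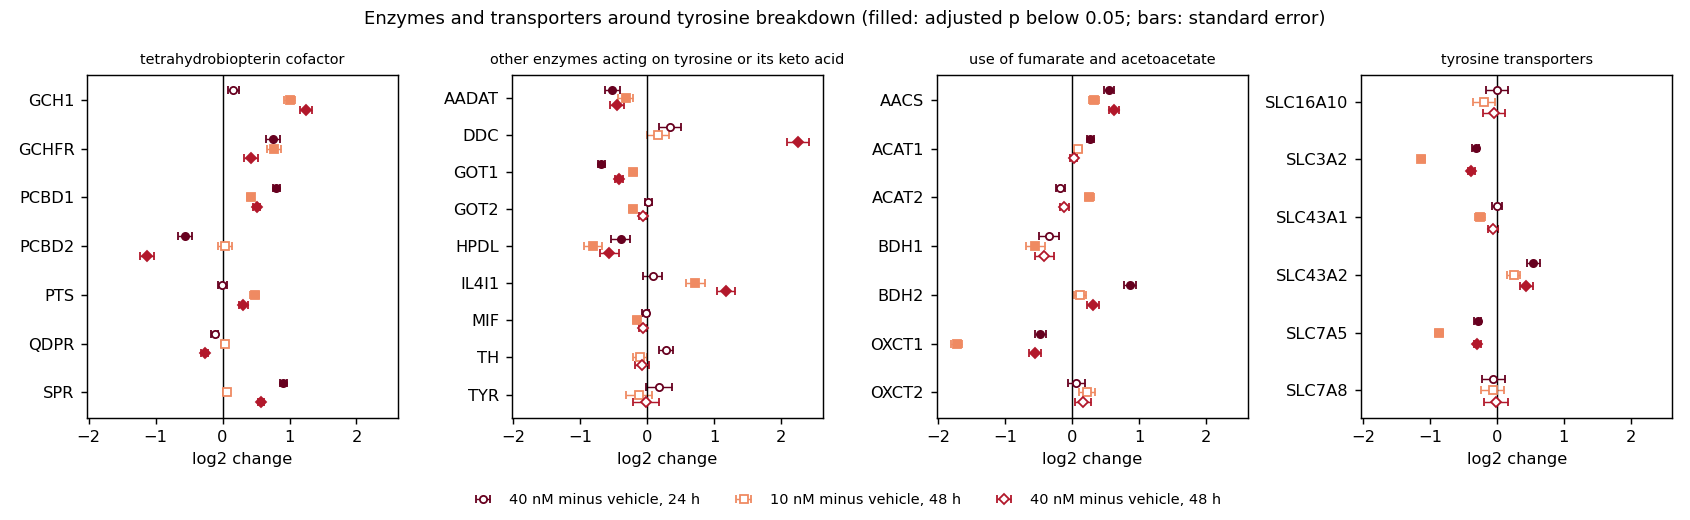
Log2 changes of genes around tyrosine breakdown in 3 comparisons with vehicle. Each panel is 1 list, the x axis is the log2 change with its standard error, and filled symbols mark an adjusted p below 0.05. DDC is apart at 40 nM after 48 h (2.25) and OXCT1 at 10 nM after 48 h (-1.73).

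Enzymes that break down other amino acids were set beside the chain. Of 34 measured, 9 rose and 5 fell at 40 nM after 48 h, 8 rose and 6 fell at 10 nM, and at 24 h 13 were called higher and 3 lower, with medians within 0.04 of 0. In that order 10.5%, 14.4% and 14.8% of all genes were called higher, and 10.7%, 11.9% and 16.7% lower. TDO2, which opens the ring of tryptophan, rose by 1.68 ± 0.11 at 10 nM and by 1.04 ± 0.11 at 40 nM after 48 h. It was lower at 40 nM than at 10 nM (-0.64 ± 0.11, limma adjusted p = 0.000596), the order that HPD had at 48 h. At 24 h, unlike HPD, TDO2 averaged 6.75 at 40 nM and 6.77 with vehicle. CTH, of the same list, was high in the same groups as HPD. It averaged 8.82 at 40 nM and 6.47 with vehicle at 24 h. At 48 h CTH averaged 6.53 at 10 nM, 5.81 with vehicle and 5.70 at 40 nM. CPS1, the entry enzyme of the urea cycle, fell by 1.17 ± 0.15 at 10 nM and rose by 0.76 ± 0.15 at 40 nM after 48 h, the order that HGD had. Of 11 measured liver-enriched transcription factors 2 rose and 1 fell at 40 nM after 48 h, and 4 rose and 1 fell at 10 nM. The nuclear receptor NR5A2 rose by 1.01 ± 0.06 at 10 nM and fell by 0.26 ± 0.06 at 40 nM, and FOXA2 fell by 0.65 ± 0.07 at 10 nM.

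Because TAT is induced by glucocorticoids in liver, the receptor and its textbook targets were also counted. Of 9 measured, 0 rose and 2 fell at 40 nM after 48 h, 0 rose and 3 fell at 10 nM, and at 24 h 2 were called higher and 4 lower. In that order 10.5%, 14.4% and 14.8% of all genes were called higher, and 10.7%, 11.9% and 16.7% lower. NR3C1, the receptor, fell by 0.32 ± 0.06 at 10 nM after 48 h (limma adjusted p = 0.00162) and did not pass at 40 nM (-0.03 ± 0.06, adjusted p = 0.816). At 24 h it was among the genes called higher, with 11.23 at 40 nM and 10.70 with vehicle, a log2 change of 0.53 ± 0.06. The metallothionein MT2A fell by 0.52 ± 0.05 at 40 nM and 0.34 ± 0.05 at 10 nM, and TSC22D3 by 0.42 ± 0.08 and 0.28 ± 0.08.

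Genes with a pattern like that of HPD were sought over the 15 arrays, each value less the vehicle mean of its time, among 1373 genes whose group means spanned at least 1 on this scale. The highest Pearson correlations were those of SCARA5 (0.980), HSPA2 (0.979), CFI (0.977), LINC01116 (0.977) and DAPK1 (0.973), and the lowest those of MCM7 (-0.984), SOCS2 (-0.972) and NT5E (-0.967). SCARA5, the most alike, was higher by 2.94 at 40 nM after 24 h, 1.57 at 10 nM and 0.54 at 40 nM after 48 h. For HGD, a search added after its values were seen gave RASSF6 (0.971), CPNE4 (0.971), CXCL1 (0.968), B4GALT4 (0.965) and TM4SF20 (0.958) as the most alike, and TIMP2 (-0.995) as the most opposite. HPD and HGD themselves had a correlation of -0.173. These are descriptions over arrays that share groups and vehicle means.

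The 2 nearest measured genes on either side of HPD and HGD were also read. Beside HPD on chromosome 12 lie SETD1B, LINC01089, PSMD9 and CFAP251, whose log2 changes at 10 nM after 48 h were -0.33, 0.22, 0.15 and -0.14. Of these only SETD1B was called at 10 nM (limma adjusted p = 0.00133). SETD1B was also lower at 40 nM after 48 h (-0.19, limma adjusted p = 0.0428). PSMD9 was lower at 40 nM than at 10 nM (-0.21, limma adjusted p = 0.0113). At 24 h SETD1B (-0.29) and PSMD9 (-0.16) were among the genes called lower, as were 16.7% of all genes. Beside HGD on chromosome 3 lie FSTL1, NDUFB4, RABL3 and GTF2E1, with log2 changes of -0.13, 0.07, -0.38 and 0.15 at 40 nM after 48 h. FSTL1 was lower at 10 nM with a log2 change of -1.85 (limma adjusted p = 5.59e-09), close in size to that of HGD there. It did not pass at 40 nM after 48 h (adjusted p = 0.426). GTF2E1 (-0.45, adjusted p = 0.00095) and NDUFB4 (-0.19, adjusted p = 0.0271) were also lower at 10 nM, where 11.9% of all genes were, and RABL3 did not pass (-0.28). At 40 nM over 10 nM, FSTL1, GTF2E1 and NDUFB4 were called higher (1.71, 0.60 and 0.25), as were 11.9% of all genes, and RABL3 did not pass (-0.10).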

How the data were processed

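The deposited table holds 1 log2 value per probe set and array. Per the submitters' processing notes, the authors used RMA in Affymetrix Expression Console (version not given in the sources used here), which removes background, gives arrays processed together 1 distribution and combines probes, so that changes of dim genes come out compressed. Of 54675 probe sets, 62 are controls, 41091 had 1 symbol in the platform annotation, 1801 had several and 11721 had none here. Gene IDs gave current symbols for 41037. Each of 19775 genes is read from its brightest probe set. A model of the 5 group means over 15 arrays was fitted in limma 3.58.1 (R 4.3.3, lmFit, then eBayes, 10 residual degrees of freedom), two-sided, with Benjamini-Hochberg adjustment over all genes, or over 54613 probe sets for single probe sets. The script was tested on simulated data.

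Arrays have no read depth, and 3 per group limit the precision. The members and lists were chosen with earlier results of these data known. Named by rule were the members, up to 3 called genes of a list with the largest changes per comparison, HPDL and NR3C1, the 5 genes most like HPD and the 3 most opposite, and the neighbours of HPD and HGD. Marker genes, genes like HGD and some further list genes were named after their values were seen. Alternatives covered the normalization between arrays (cyclic loess, centring on medians), low values (a floor at percentile 20, or leaving out the 40% dimmest), the choice of probe set, a replicate block, robust or weighted fits, fits of 2 groups, a stricter threshold and each array left out. Leaving out the 10 nM arrays was chosen after seeing the data.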

Additional observations from a re-analysis of the deposited data

Results flagged for a closer look

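The effect of 40 nM differed between the times for 2 of the 5 enzymes. For HPD the log2 effect at 48 h minus that at 24 h was -3.43, and for HGD it was 1.66. Both were singled out because the difference between the times was called in limma. The members were chosen with the values of HPD and HGD known, so these are descriptions and not tests. Groups of 3 arrays are too small for a check of single arrays that lie apart.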

How the results depend on the processing

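The counts of enzymes called kept within 1.5 times their value in 93 of 94 alternatives. The exception was averaging all probe sets of a gene, which left 1 of 5 called at 40 nM after 48 h (HGD), because FAH no longer passed. With each array left out in turn the counts were 4 at 40 nM after 24 h, 3 to 4 at 10 nM, 2 at 40 nM after 48 h, 4 between the doses and 2 to 3 for the difference between the times. FAH at 10 nM passed in 6 alternatives (limma adjusted p from 0.00865 to 0.0472), HPD at 40 nM after 48 h in 3, GSTZ1 for the difference between the times in 8, and TAT at 10 nM with the first 10 nM array left out (0.34, adjusted p = 0.0297). The cause was not tested. TAT, never called otherwise, changed sign. At 40 nM after 24 h it was -0.069 with its probe sets averaged, -0.22 without _x_at and _s_at probe sets and -0.042 with array weights, and -0.052 to 0.12 with each array left out. At 10 nM after 48 h it was -0.12 without _x_at and _s_at probe sets. Between the doses it was 0.010, 0.28 and 0.082 in those 3 settings, and -0.13 to 0.072 with each array left out. The estimation of array weights stopped before it converged. Values of HPD ranged from 3.67 to 4.39 at 40 nM after 24 h over these alternatives.

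With the replicate block the counts were the same, 4 at 24 h, 3 at 10 nM and 2 at 40 nM after 48 h, and no call changed. The labels do not say what the replicate number marks. Of 30 pairs of same-numbered arrays 10 had a correlation of deviations over 0.1, with a median of -0.064 and a range from -0.46 to 0.50. Deviations from a mean of 3 arrays sum to 0, which ties these correlations together. The check therefore cannot decide whether same-numbered arrays share more than a number. TAT left the test when the dimmest 40% of genes were left out, since it lies among them.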
